A study of Mus musculus with 6 samples.

Results

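Integrins are cell-surface receptors built from 1 alpha and 1 beta subunit, and with the selectin ligands, the ICAMs and CD44 they decide where a T cell can stop, attach and enter a tissue. The genes described here are those whose symbol in the deposited table is one of 32 names: 18 integrin alpha subunits, 8 integrin beta subunits and the adhesion molecules Icam1, Icam2, Pecam1, Cd44, Selplg and Cd226. They were chosen by name, with earlier results of these data known. The 32 symbols stand in 33 rows of the table of 34745 genes, because Itgam is carried by 2 Ensembl gene IDs.

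RNA was sequenced from mouse CD4 T cells in 2 groups of 3 libraries. The PM2.5 group received a suspension of fine airborne particles at 100 µg/ml, added 6 h after stimulation, and the PBS group received PBS alone. All 6 cultures began as naive CD4 T cells from the spleen of female C57BL/6 mice, given as 6 weeks old. All were stimulated for 4 days on plates coated with antibodies to CD3 and CD28, and all were polarised towards IL-17-producing (Th17) cells with IL-6 (20 ng/ml), IL-23 (10 ng/ml), TGF-beta (2 ng/ml), IL-2 (5 ng/ml) and antibodies to IFN-gamma and IL-4 (5 µg/ml each). TGF-beta is a known regulator of integrin genes, and it was present in both groups. The cells are a culture model of helper T cells, and the particle dose is 1 dose at 1 time. The labels do not say whether the libraries of a group came from separate animals or cultures, and the p-values therefore describe the spread among these 6 libraries only, which may be technical.

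In T cells the integrin LFA-1, made of the alpha L subunit (Itgal) and the beta 2 subunit (Itgb2), binds ICAM-1 and ICAM-2 on other cells and holds the immune synapse together. The beta 7 subunit (Itgb7) joins alpha 4 (Itga4) to form the gut-homing receptor for MAdCAM-1. It also joins alpha E (Itgae, CD103) to form a receptor that binds E-cadherin on epithelium. Beta 1 (Itgb1) joins many alpha subunits to bind collagen, laminin and fibronectin, and the alpha V (Itgav) integrins with beta 3, 5, 6 or 8 bind RGD motifs, among them that of latent TGF-beta. PSGL-1, the product of Selplg, is the main selectin ligand of T cells, CD44 binds hyaluronan, and CD226 binds the nectin-like protein CD155 and the nectin CD112.

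The libraries held 25397965 to 27215853 counts in the PM2.5 group and 19511561 to 22353131 in the PBS group, so each PM2.5 library was deeper than each PBS library. Levels in CPM are counts scaled to the library total and corrected with TMM factors, which were 0.978 in each PM2.5 library and 1.02 to 1.03 in the PBS libraries. Where a gene had no count, its level could still be as high as 0.110 to 0.118 CPM in a PM2.5 library and 0.134 to 0.154 CPM in a PBS library, which is 3 counts of the total and covers counting error only. Genes of the CD4 T cell were abundant in all libraries, with 9 of 9 markers tested, 1 higher and 8 lower, and a summed level of 2552 to 2605 CPM in the PM2.5 group and 3143 to 3162 CPM in the PBS group. All 7 Th17 markers were tested, 1 higher and 5 lower. For both lists the shares over all genes tested were 35.2% higher and 35.3% lower. The summed Th17 level was 2986 to 3467 CPM in the PM2.5 group and 3577 to 3653 CPM in the PBS group. Il17f held most of it, with 1813 ± 256 CPM in the PM2.5 group and 2323 ± 58.4 CPM in the PBS group (SD, n = 3 each).

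Of the 33 rows, 24 had enough counts to be tested, and 9 did not. A gene was called at an adjusted p under 0.05 in the quasi-likelihood test of edgeR, adjusted by Benjamini-Hochberg over all 12967 genes tested. Of the 24, 20 were called, 6 higher in the PM2.5 group and 14 lower, where 70.6% of all genes tested were called, 35.2% higher and 35.3% lower. At least 2-fold changes were called for 1 gene that rose and 8 that fell, against 6.51% and 12.4% of all genes tested. The libraries of the groups did not overlap for 21 of the 24, 7 higher and 14 lower, against 74.9% of all genes tested, 37.4% in each direction. The median log2 fold change was -0.80 over the 24 and -0.01 over all genes tested. A low gene could enter the test through the group where it was high, so these counts describe the tested genes and do not cover all 33 rows.

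Both chains of the gut-homing and epithelial integrins fell together. Itgb7 (ENSMUSG00000001281, mm10 chromosome 15, 102215995 to 102231935, minus strand) stood at 35.4, 36.6 and 34.5 CPM in the PM2.5 libraries, against 151, 135 and 146 CPM in the PBS libraries. The groups were far apart, with every PM2.5 library below every PBS library. Itgb7 fell 4.06-fold (log2 fold change -2.02, SE 0.05, adjusted p = 1.58e-10).

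Itga4, its partner in the receptor for MAdCAM-1 and also a partner of beta 1 in the receptor for VCAM-1 (ENSMUSG00000027009, chromosome 2, 79255426 to 79333123, plus strand), was a low gene throughout. It had 1.43, 1.21 and 1.65 CPM in the PM2.5 libraries, against 5.04, 6.75 and 5.70 CPM in the PBS libraries, and the groups did not overlap. Itga4 fell by 2.02 on the log2 scale (SE 0.17, adjusted p = 1.85e-06). Its antisense neighbour Cerkl shares exon sequence with it and had 21 to 29 counts in the PM2.5 libraries and 24 to 36 in the PBS libraries, against 31 to 41 and 114 to 134 for Itga4. The strand setting of the counting is not given in the sources used here, so reads of the shared exons cannot be assigned to either gene and the level of Itga4 is uncertain.

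Itgae, the gene of the alpha E chain CD103 (ENSMUSG00000005947, chromosome 11, 73090583 to 73147446), had 17.7, 18.9 and 20.0 CPM in the PM2.5 libraries, against 55.2, 47.9 and 51.4 CPM in the PBS libraries. It fell 2.73-fold (log2 fold change -1.45, SE 0.07, adjusted p = 2.31e-08). Gsg2, a mitotic kinase gene that lies on the other strand within the Itgae locus and shares no exon with it in GENCODE M21, held 815 to 858 counts in the PM2.5 libraries and 1023 to 1160 in the PBS libraries, and fell by 0.60 on the log2 scale (SE 0.05, adjusted p = 2.19e-06). CD103 is also carried by CD8 and gamma-delta T cells, whose 6 measured markers summed to 28.8 to 32.4 CPM in the PM2.5 group and 73.9 to 75.6 CPM in the PBS group. Of the 5 tested, 4 were called lower and Cd8b1 higher, where 35.3% and 35.2% of all genes tested were. The part of CD8 and gamma-delta T cells in the fall of Itgae was not tested. In bulk RNA, fewer cells of a type and less RNA per cell cannot be told apart.

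Of the ligands of these receptors, Madcam1 was low and rose, with 0.822 ± 0.145 CPM in the PM2.5 group and 0.256 ± 0.128 CPM in the PBS group (SD, n = 3 each) and 1.64 higher on the log2 scale (SE 0.38, adjusted p = 0.0028). It rests on 18 to 24 counts in a PM2.5 library and 3 to 9 in a PBS library. Vcam1 had 4.17 ± 0.753 CPM in the PM2.5 group and 4.21 ± 0.195 CPM in the PBS group (SD, n = 3 each), and its log2 fold change of -0.01 did not pass (SE 0.15, adjusted p = 0.951). The E-cadherin gene Cdh1 had too few counts to be tested, at most 2 in a PM2.5 library and 7 to 11 in a PBS library. These 3 ligands were named after their values were seen.

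The start regions of Itgb7 and Itga4 are shown because the chains of 1 receptor had the same log2 fold change, -2.02. They are RefSeq windows in GRCm38.p6, the assembly of mm10, from 250 bases before to 50 bases after the start, at chr15:102231886-102232185 (minus strand) and chr2:79255176-79255475 (plus strand), written 5′ to 3′ on the strand of the gene. Capitals mark the motifs found on either strand among 7 searched: RUNX (TGTGGT), AP-1 (TGANTCA), the cyclic AMP response element (TGACGTCA), the C/EBP-ATF element (TTGCATCA), a kappaB-like motif (GGAANNTCC), the GC box (GGGCGG) and the dioxin response core bound by the aryl hydrocarbon receptor (GCGTG).
Itgb7: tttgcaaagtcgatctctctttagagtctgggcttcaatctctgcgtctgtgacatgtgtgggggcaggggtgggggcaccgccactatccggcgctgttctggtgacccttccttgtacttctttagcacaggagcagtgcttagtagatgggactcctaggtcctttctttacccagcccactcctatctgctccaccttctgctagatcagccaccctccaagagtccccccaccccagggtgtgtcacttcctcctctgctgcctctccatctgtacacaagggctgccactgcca
Itga4: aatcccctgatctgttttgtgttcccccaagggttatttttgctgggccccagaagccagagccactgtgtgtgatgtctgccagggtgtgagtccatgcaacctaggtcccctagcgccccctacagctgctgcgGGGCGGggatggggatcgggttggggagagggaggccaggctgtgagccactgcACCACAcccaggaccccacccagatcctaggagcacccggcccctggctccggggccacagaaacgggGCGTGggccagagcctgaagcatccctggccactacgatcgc
The Itgb7 window held none of the 7 motifs. The Itga4 window held 1 RUNX motif, 1 GC box and 1 dioxin response core, which occur in 16.8%, 35.7% and 32.4% of the 32851 windows of the RefSeq table. A match is a description of the letters and not of binding, and the absence of one says only that its letters are not in this window. No 2 motif matches overlapped in these windows.

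The chains of the leukocyte integrin LFA-1 differed in their change. Itgb2, the beta 2 chain that pairs with alpha L, M, X and D (ENSMUSG00000000290, chromosome 10, 77530252 to 77565708), had 257, 243 and 249 CPM in the PM2.5 libraries, against 507, 484 and 497 CPM in the PBS libraries. It fell 1.99-fold (log2 fold change -0.99, SE 0.03, adjusted p = 1.37e-09). Itgal (ENSMUSG00000030830, chromosome 7, 127296260 to 127335138) had 606, 615 and 603 CPM in the PM2.5 libraries, against 573, 547 and 562 CPM in the PBS libraries, groups that did not overlap but lay close together. Its log2 fold change was 0.12 (SE 0.03, adjusted p = 0.00324). That call did not pass with library totals in place of TMM factors (0.05, adjusted p = 0.113), with upper-quartile factors (0.01, adjusted p = 0.844), with a filter at a mean of 5 CPM (0.05, adjusted p = 0.105) or with limma on log2(FPKM + 1) or log2(FPKM + 0.1) (both 0.05, adjusted p = 0.126 and 0.127).

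To compare genes with each other, the deposited FPKM were used, which divide counts by the library total and a length per gene. The ratio of Itgb2 to Itgal in FPKM was 0.858, 0.799 and 0.834 in the PM2.5 libraries and 1.79 in each PBS library. The ratio differed by -1.11 on the log2 scale, with an exact two-sided permutation p of 0.10, the smallest that 3 libraries against 3 allow, and 0.113 when adjusted over the 9 ratios computed. The lengths behind the FPKM were 0.546 to 3.09 times those of the GENCODE M21 transcript with the longest coding sequence, and with that transcript length, an alternative chosen after seeing the data, the ratio was 0.626 ± 0.0225 in the PM2.5 group and 1.35 ± 0.000480 in the PBS group (SD, n = 3 each). Under both lengths Itgb2 lay below Itgal in the PM2.5 group and above it in the PBS group.

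The other partners of beta 2 were at or near the limit of detection. Itgax, the alpha X chain (CD11c) of dendritic cells, had 0.226, 0.196 and 0.282 CPM in the PM2.5 libraries, against 0.486, 0.504 and 0.610 CPM in the PBS libraries, and the groups did not overlap. It fell 2.26-fold (log2 fold change -1.17, SE 0.36, adjusted p = 0.0137). It rests on 5 to 7 counts in a PM2.5 library and 10 to 14 in a PBS library, so it entered the test through the PBS group. The call did not pass without PBS replicate 3 (-1.07, adjusted p = 0.0561) or with DESeq2 (-1.19, adjusted p = 0.134). Itgam, the alpha M chain (CD11b) of myeloid cells, is carried by 2 overlapping IDs that share exons, so their counts cannot be told apart: ENSMUSG00000030786 held 5 counts over the PM2.5 libraries and 13 over the PBS libraries, and ENSMUSG00000108596 held 4 and 41. Itgad held 6 counts over the PM2.5 libraries and 17 over the PBS libraries, and shares exon sequence with Cox6a2 on the other strand, which held 16 to 22 in a PM2.5 library and at most 1 in a PBS library.

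Markers of myeloid cells were low in both groups. Of the 11 macrophage and monocyte markers 4 were at 0 in all libraries, Lyz2 and C1qa among them, and their sum was 5.79 to 6.74 CPM in the PM2.5 group and 40.8 to 41.0 CPM in the PBS group. Cx3cr1, a receptor that T cells can also carry, had 3.01 CPM in the PM2.5 group and 35.3 CPM in the PBS group, and Cd68 had 2.75 CPM and 4.69 CPM. Of the 9 neutrophil markers 5 were at 0 in all libraries, among them S100a8 and S100a9, and the sum was 0.564 to 0.705 CPM in the PM2.5 group and 5.29 to 6.14 CPM in the PBS group. Ly6g alone made up most of that sum, with 0.625 CPM in the PM2.5 group and 5.53 CPM in the PBS group. Of the 9 dendritic cell markers 3 were at 0, and their sum was 3.50 to 4.63 CPM in the PM2.5 group and 2.43 to 2.72 CPM in the PBS group. Zbtb46 was higher, with 2.68 CPM in the PM2.5 group and 0.455 CPM in the PBS group. Ciita was lower, with 0.0261 CPM and 0.790 CPM, and H2-Ab1 did not pass. The part of other cells in the counts of Itgax, Itgam and Itgad was not tested.

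**Figure D1:**
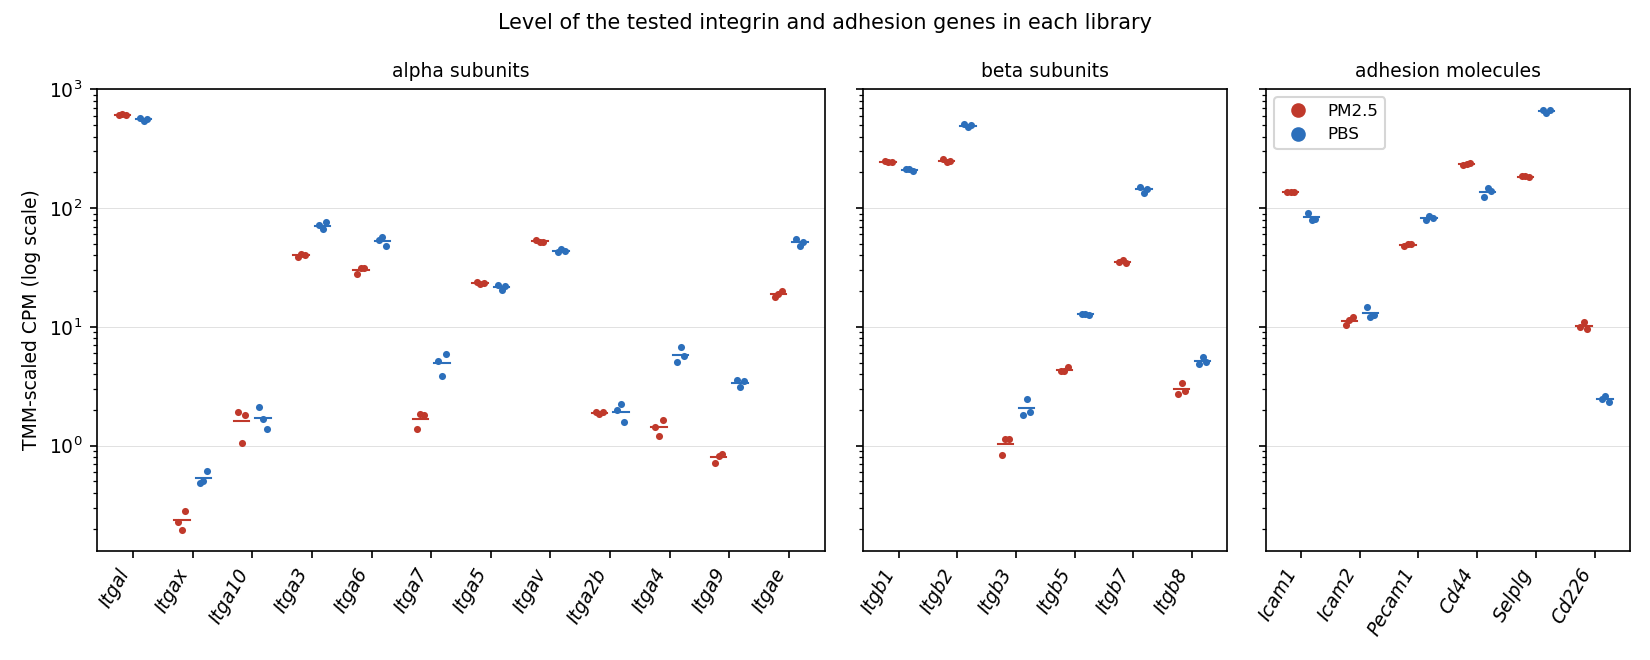
TMM-scaled CPM (log axis) of the 24 tested genes in each library, 3 PM2.5 libraries (red, left) and 3 PBS libraries (blue, right) per gene, where lines are means. Itgb7 lies at 34.5 to 36.6 CPM in the PM2.5 libraries and 135 to 151 CPM in the PBS libraries, while Itgal lies at 603 to 615 CPM and 547 to 573 CPM.

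All 3 laminin-binding alpha subunits were called lower, where 35.3% of all genes tested were. Itga3 (ENSMUSG00000001507, chromosome 11, 95044474 to 95076801), which with beta 1 binds laminin, had 39.1, 41.4 and 40.5 CPM in the PM2.5 libraries, against 71.6, 66.1 and 75.7 CPM in the PBS libraries, and fell by 0.82 on the log2 scale (SE 0.06, adjusted p = 3.74e-07). Itga6, which pairs with beta 1 or beta 4 for laminin, had 28.0, 31.6 and 31.5 CPM in the PM2.5 libraries, against 53.8, 57.2 and 47.6 CPM in the PBS libraries, and fell by 0.80 (SE 0.08, adjusted p = 6.25e-06). The groups did not overlap for either gene. Itga7, a laminin receptor best known from muscle, was lower in level, with 1.39, 1.84 and 1.81 CPM in the PM2.5 libraries, against 5.17, 3.83 and 5.88 CPM in the PBS libraries. It fell 2.96-fold (log2 fold change -1.57, SE 0.19, adjusted p = 3.65e-05).

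Itga9, a relative of Itga4 that pairs with beta 1, had 0.714, 0.823 and 0.846 CPM in the PM2.5 libraries, against 3.58, 3.12 and 3.48 CPM in the PBS libraries. It had the largest fall of the 24 genes, 4.27-fold (log2 fold change -2.09, SE 0.17, adjusted p = 1.65e-06). The antisense RNA Gm2415 within its locus, which shares no exon with it in GENCODE M21, had 4 to 8 counts in the PM2.5 libraries and 11 to 19 in the PBS libraries, against 19 to 21 and 62 to 81 for Itga9.

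Itgb1, the common partner of these alpha subunits, did not fall with them. It had 251, 245 and 245 CPM in the PM2.5 libraries, against 213, 214 and 207 CPM in the PBS libraries, and rose 1.17-fold (log2 fold change 0.23, SE 0.03, adjusted p = 5.85e-05). Itga5, which with beta 1 forms the fibronectin receptor, had 22.8 to 23.7 CPM in the PM2.5 group and 20.4 to 22.4 CPM in the PBS group. Its log2 fold change of 0.12 did not pass (SE 0.06, adjusted p = 0.121), although the groups did not overlap. The collagen-binding alpha subunits were nearly absent. Itga10, found mainly in cartilage, had 1.06 to 1.92 CPM in the PM2.5 group and 1.39 to 2.12 CPM in the PBS group, and its log2 fold change of -0.11 did not pass (SE 0.26, adjusted p = 0.711). Its exons overlap Gm42957 on the same strand, so its level is uncertain. Itga1 had 3 counts over the PM2.5 libraries and 2 over the PBS libraries, Itga2 had 19 and 38, and Itga11 had 0 in all 6.

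The alpha V integrins were split between the chains. Itgav (ENSMUSG00000027087, chromosome 2, 83724397 to 83806916) had 52.7 ± 0.914 CPM in the PM2.5 group and 43.8 ± 1.17 CPM in the PBS group (SD, n = 3 each), which did not overlap, and rose by 0.27 on the log2 scale (SE 0.04, adjusted p = 0.000354). All 3 of its tested beta partners besides Itgb1 were called lower, where 35.3% of all genes tested were. Itgb5 (ENSMUSG00000022817, chromosome 16, 33829665 to 33949153), part of a vitronectin receptor, had 4.21, 4.27 and 4.59 CPM in the PM2.5 libraries, against 12.9, 12.9 and 12.5 CPM in the PBS libraries, and fell 2.92-fold (log2 fold change -1.55, SE 0.09, adjusted p = 6.81e-08). Itgb8, which with alpha V activates latent TGF-beta, had 2.74, 3.37 and 2.86 CPM in the PM2.5 libraries, against 4.86, 5.59 and 5.09 CPM in the PBS libraries, and fell by 0.79 on the log2 scale (SE 0.13, adjusted p = 0.000326). Itgb3, known from platelets and osteoclasts, had 0.827, 1.14 and 1.13 CPM in the PM2.5 libraries, against 1.81, 2.47 and 1.92 CPM in the PBS libraries, a 2.0-fold fall (log2 SE 0.22, adjusted p = 0.00193). The groups did not overlap for any of the 3, where 37.4% of all genes tested were lower without overlap.

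Itga2b, the platelet partner of beta 3, had 1.84 to 1.93 CPM in the PM2.5 libraries and 1.57 to 2.22 CPM in the PBS libraries, and its log2 fold change of -0.01 did not pass (SE 0.18, adjusted p = 0.962). Of 9 platelet and megakaryocyte markers 7 were at 0 in all libraries, Pf4 and Ppbp among them. The epithelial subunit Itgb6 and the alpha subunit Itga11 had 0 counts in each library, Itgb4 had 7 counts over the PM2.5 libraries and 17 over the PBS libraries, and Itga8 had 4 and 1. With no filter on low counts, 2 of the 9 untested rows were called lower, Itga2 (log2 fold change -1.21, adjusted p = 0.0274) and the second Itgam ID (-3.45, adjusted p = 9.52e-05).

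**Figure D2:**
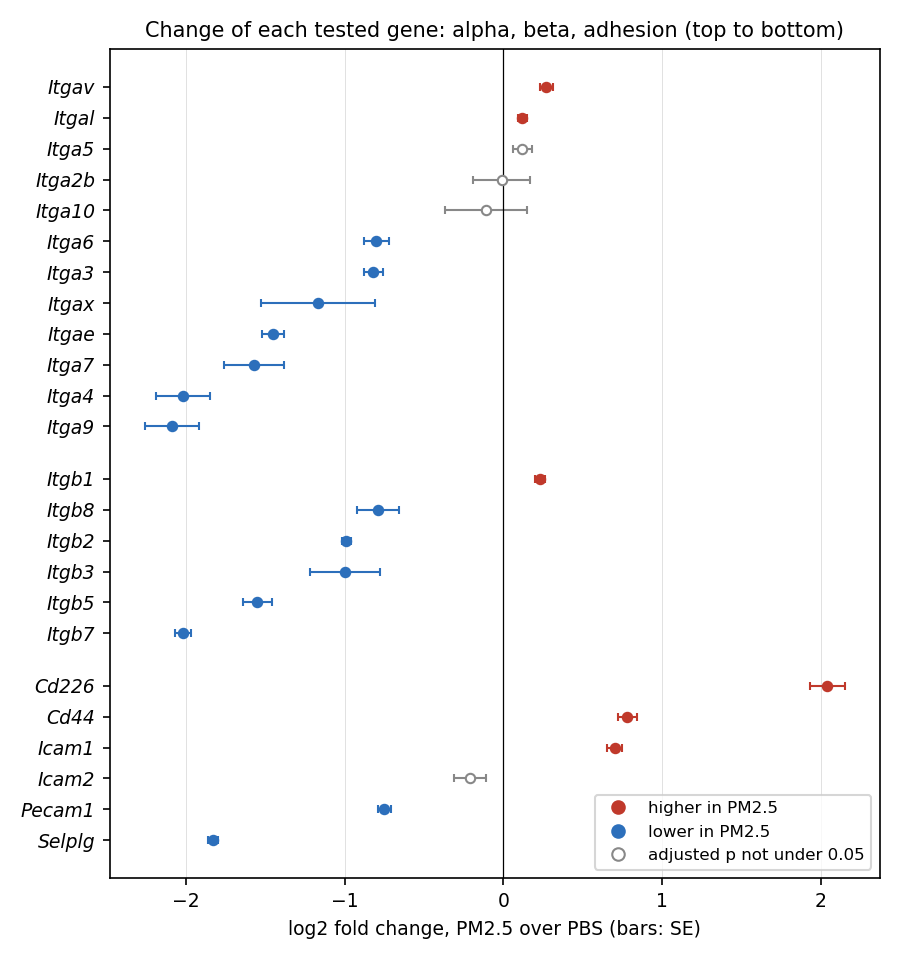
Log2 fold change of PM2.5 over PBS for the 24 tested genes, with SE, from edgeR's fit over 3 libraries per group; filled points had an adjusted p under 0.05. Alpha subunits (top) run from 0.27 for Itgav to -2.09 for Itga9, beta subunits (middle) from 0.23 for Itgb1 to -2.02 for Itgb7, and adhesion molecules (bottom) from 2.04 for Cd226 to -1.83 for Selplg.

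Over the integrin genes as a whole, 12 of the 19 alpha rows were tested, of which 2 rose and 7 fell, and 6 of the 8 beta genes were tested, of which 1 rose and 5 fell. Over all genes tested, 35.2% were called higher and 35.3% lower. As summed FPKM, the beta subunits came to 109 ± 1.89 in the PM2.5 group and 203 ± 5.68 in the PBS group, and the alpha subunits to 85.4 ± 0.687 and 98.4 ± 3.21 (SD, n = 3 each). Itgb1 made up 39.3% ± 0.190 of the summed beta FPKM in the PM2.5 group and 18.8% ± 0.654 in the PBS group. Itgb7 made up 11.4% ± 0.440 in the PM2.5 group and 26.0% ± 0.787 in the PBS group, and Itgb2 48.1% ± 0.656 and 53.5% ± 0.109. For each of these the libraries of the groups did not overlap.

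Among the alpha subunits Itgal held most of the summed FPKM, 73.9% ± 0.466 in the PM2.5 group and 61.7% ± 0.423 in the PBS group. Itgae held 4.60% ± 0.264 and 11.4% ± 0.483, and Itga3 6.84% ± 0.138 and 10.9% ± 0.557 (SD, n = 3 each). Shares add up to a whole, so a share can grow because others shrink. With the coding transcript length, Itgb1 was at 39.5% in the PM2.5 group and 19.7% in the PBS group, Itgb7 at 8.07% and 19.1%, and Itgal at 79.2% and 68.8%.

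**Figure D3:**
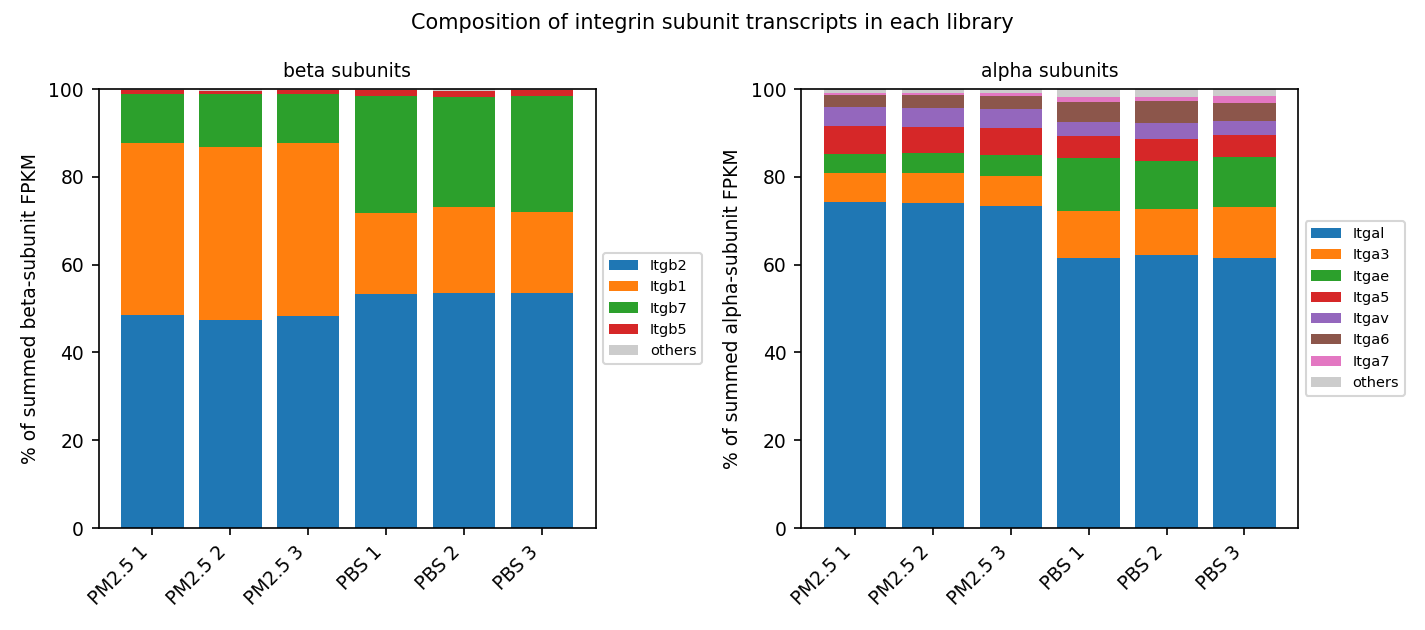
Percent of the summed FPKM of beta subunits (left) and alpha subunits (right) held by each gene in each library, 3 PM2.5 and then 3 PBS libraries; genes under 0.5% in every library are drawn together as others. Itgb1 takes 39.1 to 39.5% of the beta total in the PM2.5 libraries and 18.4 to 19.5% in the PBS libraries.

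The ratio between partner chains was compared as well. Itgb7 over Itga4 was 141 ± 26.1 in the PM2.5 group and 141 ± 27.6 in the PBS group (SD, n = 3 each). The difference was 0.01 on the log2 scale, with an exact two-sided permutation p of 0.9 in overlapping groups. The level of Itga4 is uncertain because it shares exon sequence with Cerkl, and so is this ratio. Itgb7 over Itgae was 3.17 ± 0.241 in the PM2.5 group and 4.71 ± 0.103 in the PBS group (SD, n = 3 each), a difference of -0.57 on the log2 scale between groups that did not overlap. Itgb5 over Itgav was 0.248 ± 0.0151 in the PM2.5 group and 0.872 ± 0.0255 in the PBS group, a difference of -1.82. The exact two-sided permutation p of the last 2 ratios was 0.10, the smallest possible here, and 0.113 when adjusted over the 9 ratios. With the coding transcript length, Itgb7 over Itga4 was 92.0 in the PM2.5 group and 91.8 in the PBS group. Itgb7 over Itgae was then 2.71 and 4.02, and Itgb5 over Itgav 0.191 and 0.672. The differences on the log2 scale did not depend on the length.

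**Figure D4:**
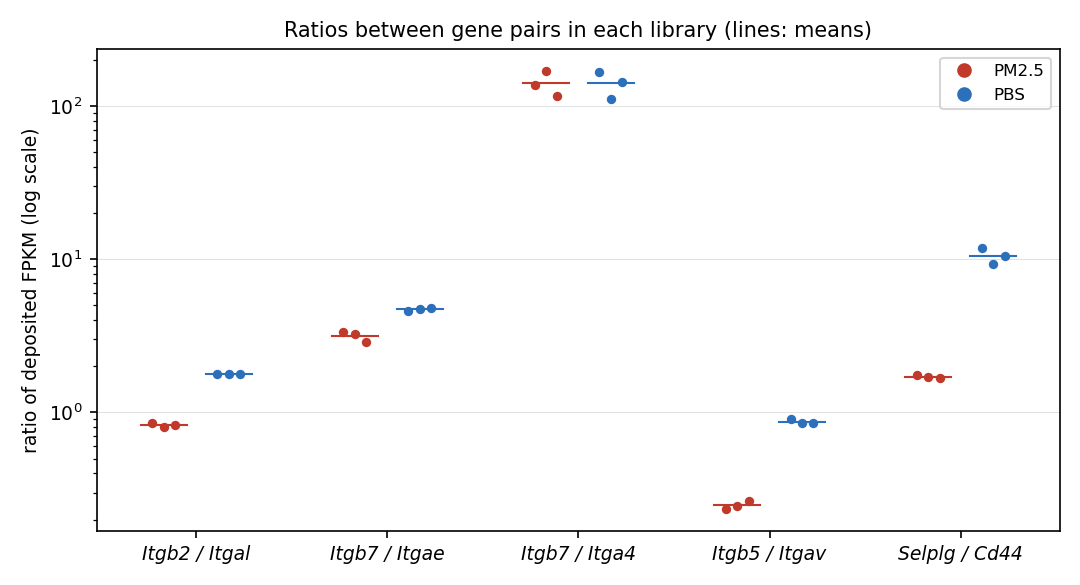
Ratio of the deposited FPKM of 5 gene pairs (log axis) in each library, PM2.5 in red at the left and PBS in blue at the right, where lines are means. The groups are apart for Itgb2 over Itgal, Itgb7 over Itgae, Itgb5 over Itgav and Selplg over Cd44, and overlap for Itgb7 over Itga4.

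Of the 6 adhesion molecules outside the integrin family, 3 were called higher and 2 lower, against 35.2% and 35.3% of all genes tested, so their counts lie near those of all genes. Selplg (ENSMUSG00000048163, chromosome 5, 113818536 to 113832644), whose product PSGL-1 carries T cells along selectins, had 187, 185 and 182 CPM in the PM2.5 libraries, against 671, 630.0 and 666 CPM in the PBS libraries. It fell 3.55-fold (log2 fold change -1.83, SE 0.03, adjusted p = 2.16e-11), the smallest adjusted p of the 24 genes. Cd44 (ENSMUSG00000005087, chromosome 2, 102811141 to 102901665), the hyaluronan receptor that marks activated and memory T cells, had 233, 236 and 238 CPM in the PM2.5 libraries, against 125, 148 and 139 CPM in the PBS libraries. It rose 1.72-fold (log2 fold change 0.78, SE 0.06, adjusted p = 2.35e-06). Selplg over Cd44 in FPKM was 1.71 ± 0.0440 in the PM2.5 group and 10.5 ± 1.23 in the PBS group (SD, n = 3 each). With the coding transcript length it was 2.37 ± 0.0610 and 14.6 ± 1.71.

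Icam1 (ENSMUSG00000037405, chromosome 9, 21015960 to 21028797), the ligand of LFA-1, had 136, 137 and 138 CPM in the PM2.5 libraries, against 90.6, 79.7 and 81.8 CPM in the PBS libraries. It rose 1.63-fold (log2 fold change 0.70, SE 0.05, adjusted p = 3.29e-07). Icam2, a second LFA-1 ligand, had 11.3 ± 0.891 CPM in the PM2.5 group and 13 ± 1.37 CPM in the PBS group (SD, n = 3 each), which overlapped, and its log2 fold change of -0.21 did not pass (SE 0.10, adjusted p = 0.0821). It passed in 5 alternatives, with log2 fold changes between -0.213 with limma on log2(FPKM + 1) (adjusted p = 0.0386) and -0.316 with upper-quartile factors (adjusted p = 0.0137). Pecam1 (CD31), an inhibitory adhesion receptor of leukocytes and endothelium, had 47.8, 49.5 and 50.2 CPM in the PM2.5 libraries, against 79.1, 85.1 and 83.3 CPM in the PBS libraries, and fell by 0.75 on the log2 scale (SE 0.04, adjusted p = 1.18e-07). Of 11 endothelial and stromal markers 3 were at 0 in all libraries, and their sum was 0.564 to 1.89 CPM in the PM2.5 group and 1.48 to 2.21 CPM in the PBS group. Their part in the fall of Pecam1 was not tested.

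Cd226 (ENSMUSG00000034028), the costimulatory receptor DNAM-1 that associates with LFA-1, had the largest rise of the 24 genes. It had 9.88, 10.9 and 9.62 CPM in the PM2.5 libraries, against 2.48, 2.62 and 2.31 CPM in the PBS libraries, 4.11-fold higher (log2 fold change 2.04, SE 0.11, adjusted p = 5.47e-08). NK cells also carry Cd226, and their 9 markers, of which Ncr1 and Klra8 were at 0 in all libraries, 1 rose and 4 fell, summed to 15.4 to 16.3 CPM in the PM2.5 group and 53.8 to 64.5 CPM in the PBS group. Among them Eomes rose by 3.58 on the log2 scale at a low level, 0.973 CPM in the PM2.5 group and 0.0753 CPM in the PBS group. Klrd1 (-2.43), Klre1 (-1.78), Prf1 (-1.34) and Gzma (-1.29) fell. Over all genes tested, 35.2% were called higher and 35.3% lower. The part of NK cells in the rise of Cd226 was not tested.

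The start regions of Icam1 and Cd44 are shown because they had the largest rises among the risen genes whose RefSeq windows were searched, which did not include Cd226. They lie at chr9:21015690-21015989 (plus strand) and chr2:102901616-102901915 (minus strand), with the same motifs in capitals.
Icam1: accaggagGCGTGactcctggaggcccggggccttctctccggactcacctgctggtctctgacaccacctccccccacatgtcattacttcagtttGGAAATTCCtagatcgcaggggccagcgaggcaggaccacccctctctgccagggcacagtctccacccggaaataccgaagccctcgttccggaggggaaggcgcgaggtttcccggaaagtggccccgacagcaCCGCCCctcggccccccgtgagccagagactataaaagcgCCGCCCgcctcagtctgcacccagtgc
Cd44: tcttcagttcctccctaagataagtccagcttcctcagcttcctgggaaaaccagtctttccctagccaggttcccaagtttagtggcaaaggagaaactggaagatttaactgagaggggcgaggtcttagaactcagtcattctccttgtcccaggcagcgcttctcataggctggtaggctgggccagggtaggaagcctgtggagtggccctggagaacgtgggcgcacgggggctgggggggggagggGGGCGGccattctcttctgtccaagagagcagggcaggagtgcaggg
The Icam1 window held 1 kappaB-like motif, GGAAATTCC, which starts at position -153 relative to the RefSeq start and is present in 4.26% of all windows, with 2 GC boxes and 1 dioxin response core. The Cd44 window held 1 GC box. Of the 32 symbols 20 had an entry among the windows searched, in 22 windows, and of these no window but that of Icam1 held the kappaB-like motif. AP-1 was found in 3 of the 22 windows against 7.81% of all windows, and RUNX in 3 against 16.8%. The GC box was found in 11 against 35.7% and the dioxin response core in 6 against 32.4%. Neither the cyclic AMP response element nor the C/EBP-ATF element was found in any. They occur in only 1.79% and 0.895% of all windows, so their absence from 22 windows says little.

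Per length, the order of the genes differed between the groups. In FPKM the 5 highest in the PM2.5 group were Itgal (63.0 ± 0.603), Icam1 (52.7 ± 0.307), Itgb2 (52.3 ± 1.53), Itgb1 (42.7 ± 0.576) and Selplg (31.5 ± 0.448), with Icam1 and Itgb2 overlapping. In the PBS group they were Selplg (117 ± 4.42), Itgb2 (109 ± 2.89), Itgal (60.7 ± 1.60), Itgb7 (52.8 ± 3.03) and Itgb1 (38.1 ± 0.507), none overlapping its neighbour (SD, n = 3 each). With the coding transcript length, Selplg came next after Itgal in the PM2.5 group at 97.3 ± 1.38 and Icam1 came after Itgb1, so that part of the order rests on the length. Itgal stayed first in the PM2.5 group and Selplg first in the PBS group under both lengths.

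Genes on the same chromosome did not all have the same call. The 5 rows of the alpha L, M, X and D genes lie together on chromosome 7 between 127296260 and 128223816, and of them Itgal was called higher and Itgax lower. Neither of these calls passed under every alternative run. Itgax also rests on 5 to 7 counts in a PM2.5 library and 10 to 14 in a PBS library. Chromosome 11 holds 7 of the genes, spread between 73090583 and 116008412. Of these, Itga3, Itgae, Itgb3 and Pecam1 fell, Itga2b and Icam2 did not pass and Itgb4 was not tested. Calls were made for 70.6% of all genes tested, with 35.3% lower, so these calls describe the named genes and not the chromosome.

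Other adhesion genes were followed in 8 lists, in the same edgeR fit, in which 70.6% of all genes tested were called, 35.2% higher and 35.3% lower. Several of the list counts lie near those shares. Of 19 genes that activate integrins or bind their tails, all tested, 4 rose and 11 fell, with a median log2 fold change of -0.42. Stk4, the kinase MST1 that acts in LFA-1 activation (1.11), and the small GTPase Rap1b (0.92) rose, and Fermt1, the gene of kindlin-1, fell (-3.05). Chosen after their values were seen, the other kindlin genes were Fermt3 (-0.70), the leukocyte form, which fell, and Fermt2 (3.91), which rose at a low level. Fermt2 had 42 to 61 counts in a PM2.5 library and 2 to 4 in a PBS library. It entered the test through the PM2.5 group, and the size of its rise is uncertain. The talin genes Tln1 (-0.42) and Tln2 (-0.92), chosen in the same way, both fell. Of 20 focal adhesion and actin linkage genes tested, 6 rose and 9 fell (median -0.12), with Actn1, the crosslinker alpha-actinin-1, up by 1.97, the adaptor Nedd9 up by 0.85 and the paxillin relative Lpxn at -1.06.

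Of 15 integrin ligand genes tested of 22, 6 rose and 5 fell (median -0.01). Thbs1, thrombospondin-1, stood at 17.6 ± 1.18 CPM in the PM2.5 group and 211 ± 10.1 CPM in the PBS group (log2 fold change -3.58, SE 0.06, adjusted p = 1.09e-11 in edgeR's fit), Spp1, osteopontin, fell by 1.40 and the laminin chain Lamc1 rose by 0.75. Of 14 selectin and selectin ligand glycosylation genes tested of 17, 4 rose and 8 fell (median -0.27). B4galt1, a galactosyltransferase gene, fell by 1.15 and the sulfotransferase gene Chst2 rose by 1.12. Of the fucosyltransferase genes, named after their values were seen, Fut7 fell (-0.64) and Fut4 rose (0.71).

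Of 10 tetraspanin and integrin side partner genes tested of 11, 5 rose and 3 fell (median 0.19), with Slc3a2, the integrin-associated CD98 heavy chain and a subunit of amino acid transporters, up by 1.93, Cd53 up by 0.99 and Cd37 at -0.60. Of 8 genes tested of 12 for CD44 linkage, hyaluronan and shedding, 4 rose and 2 fell (median 0.29). The sheddase gene Adam17 (0.62) and Rdx, radixin (0.37), rose, and Ezr, ezrin (-0.47), fell. The list of CD226 partners also held other nectins, nectin-like proteins and their receptors, and of its 7 genes tested 5 rose and 1 fell (median 0.86). Crtam (2.06) and Pvr, which encodes the CD226 ligand CD155 (0.87), rose, and Cd96, a receptor that shares this ligand, fell (-0.57). Of 11 other T cell adhesion receptor genes tested of 13 in the table, 6 rose and 5 fell (median 0.18). Cd200 (4.15) and Slamf1 (1.70) rose and Cd2, the receptor for CD48, fell (-1.83). These are log2 fold changes of genes called in the same edgeR fit, and the median over all genes tested was -0.01.

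**Figure D5:**
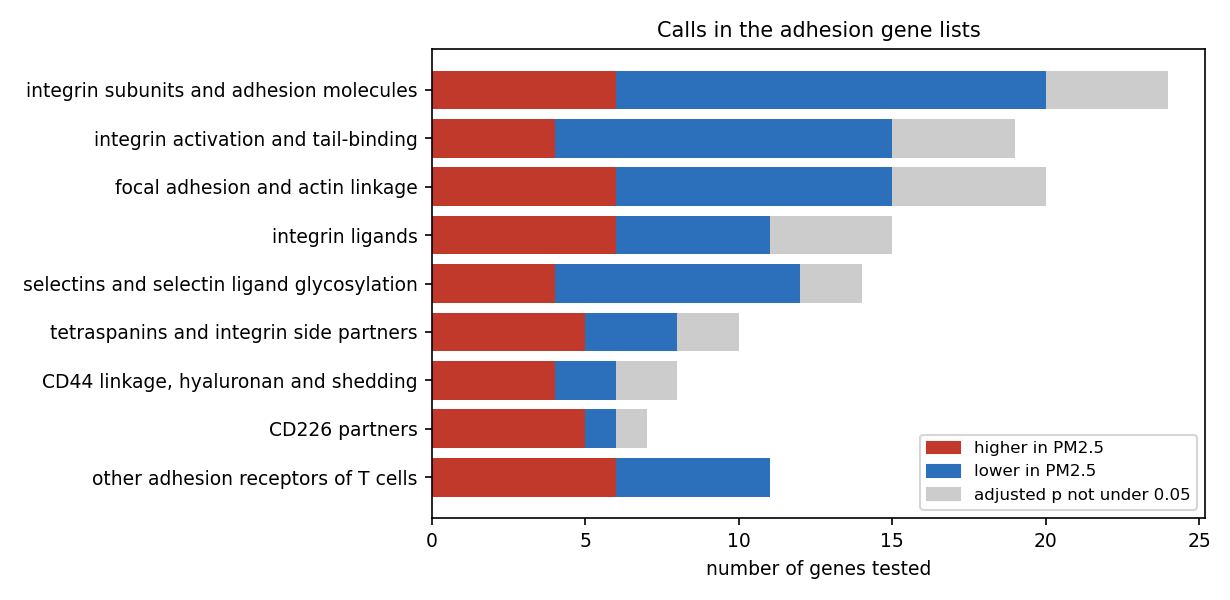
Number of genes tested in the integrin and adhesion set and in 8 lists of other adhesion genes, split into those higher in PM2.5, lower in PM2.5 and not passing an adjusted p of 0.05. The set holds 6 higher and 14 lower of 24, and the list of integrin activators 4 higher and 11 lower of 19.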

How the data were processed

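The table deposited by the authors holds raw counts per Ensembl gene and FPKM for each of 6 libraries, per the file headers. The deposited FPKM equal the count over the library total and 1 length per gene, to within 0.000856% over the 9540 genes with over 100 counts in every library. TopHat2 2.0.6 and mm10 are named in the submitters' processing notes, while for the counting program, annotation, strand setting and handling of shared reads nothing is given in the sources used here. Genes were matched by symbol and followed by ID. Genes passing filterByExpr (minimum count 10, total 15), 12967 genes with 99.9% of counts, were tested with edgeR 4.0.16 (R 4.3.3, TMM, robust glmQLFit, two-sided F test, PM2.5 against PBS, Benjamini-Hochberg over all genes, threshold 0.05). The script was tested on simulated data. Each SE is the size of the log2 fold change divided by the root of its F value, and SDs are over n = 3. All genes of the set are named, with every library's value for called genes of at least 0.5 (log2) and the 5 highest in FPKM, and from each other list the 3 with the smallest adjusted p, of which 1 gene is not reported here. The members and lists were chosen with earlier results of these data known. Replicates differed by 7.57 to 9.89 times counting noise (chi-square per degree of freedom) and each was kept. Sequences are RefSeq's (GRCm38.p6). Alternatives were DESeq2 1.42.0, limma 3.58.1 on log2(FPKM + 1) and log2(FPKM + 0.1), library totals, upper-quartile factors, no filter, mean filters of 1 and 5 CPM, a replicate block and leaving out each library.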

Additional observations from a re-analysis of the deposited data

How the results depend on the processing

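None of the called integrin and adhesion genes changed direction under the alternatives run, and the genes of the other lists were followed there by counts only. Over 351 values of single genes under the alternatives, 339 stayed on the same side of the threshold, 7 lost their call (5 of Itgal and 2 of Itgax) and 5 gained one (Icam2). The count of integrin and adhesion genes called lower was 9 in place of 14 with a filter at a mean of 5 CPM, which tested 16 of these genes in place of 24. Leaving out 1 library at a time gave 13 to 16 lower and 6 higher, and 4373 to 4483 higher and 4376 to 4515 lower over all genes. Upper-quartile factors moved the median log2 fold change of all genes to -0.118, against -0.007, so small changes such as those of Itgal, Itga5 and Itgb1 are relative to the scaling (Itgb1 0.115 and still called). Replicate numbers gave no clear pairing of the libraries. The deviations of same-numbered libraries correlated at 0.0134, 0.0072 and 0.045, the last being the highest of all pairs. Pairs of different numbers ran from -0.0374 to 0.0235, the latter for PM2.5 replicate 2 with PBS replicate 1. Correlations this small do not settle whether the libraries were paired. With the replicate block, 6 genes of the set were called higher and 14 lower, and over all genes 4534 higher and 4468 lower. With mean filters of 1 and 5 CPM, 3 and 1 integrin ligand genes were called higher in place of 6, and with 5 CPM 3 genes of the CD226 partner list in place of 5, as fewer genes were tested. Depth limits Itgax, which had 5 to 14 counts in a library.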
